A study of Mus musculus with 12 samples.

Results

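The albumin gene family of the liver and the genes that keep its fetal member silent were examined in B6C3F1 mice from a 2-year bioassay of the National Toxicology Program. B6C3F1 is the F1 hybrid of the C57BL/6 and C3H strains, and the animals of both groups had received no treatment. The genes were the albumin family members Afp, Alb, Afm and Gc, the proteoglycan Gpc3, and the transcriptional repressors Zhx2 and Zbtb20. Members were chosen by name, as all probe sets that the array annotation gives to 1 of these 7 genes alone. This gave 19 of the 45101 probe sets on the array, for 6 of 18193 genes measured, namely 5 for Afp, 1 for Alb, 2 for Afm, 1 for Gpc3, 1 for Zhx2 and 9 for Zbtb20. No probe set was named for Gc, which is therefore not analysed here. RNA came from 6 spontaneous hepatocellular carcinomas (HCC) and from 6 normal livers, each run on 1 single-colour Affymetrix array. The labels do not name the age at collection or the sex. Precision is limited by the number of arrays.

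Alpha-fetoprotein (Afp) and albumin (Alb) are the main plasma carrier proteins of the fetal and the adult liver. With afamin (Afm), a vitamin E binding protein, they form a cluster of related genes that arose by duplication, and the vitamin D binding protein (Gc) lies farther away on the same chromosome. Afp is switched off in hepatocytes after birth while Alb stays on, and it is switched on again in many liver tumours, where it serves as a serum marker. Zhx2, a zinc finger and homeobox protein found through BALB/cJ mice that keep Afp on as adults, and Zbtb20, a BTB domain zinc finger protein, are both needed for this silencing in the mouse. Glypican 3 (Gpc3), a cell-surface heparan sulfate proteoglycan of the fetal liver, is also repressed through Zhx2.

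The promoters of the 3 clustered genes and of Gpc3 are shown because Afp and Gpc3 were higher in HCC, while Alb and Afm, the neighbours of Afp, did not pass the test. Each is the 250 bases before the annotated start (RefSeq, GRCm38.p6), written 5′ to 3′ on the gene's own strand, and capitals mark the promoter element CCAAT (searched on both strands, so that it reads ATTGG where it lies on the other one). They lie at chr5:90490464-90490713 on the plus strand for Afp, chr5:90460620-90460869 on the plus strand for Alb, chr5:90518699-90518948 on the plus strand for Afm and chrX:52613975-52614224 on the minus strand for Gpc3.
Afp: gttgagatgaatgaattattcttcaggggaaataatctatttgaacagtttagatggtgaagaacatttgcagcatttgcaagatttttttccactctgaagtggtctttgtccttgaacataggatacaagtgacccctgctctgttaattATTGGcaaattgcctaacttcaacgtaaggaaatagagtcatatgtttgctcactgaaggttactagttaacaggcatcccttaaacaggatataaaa
Alb: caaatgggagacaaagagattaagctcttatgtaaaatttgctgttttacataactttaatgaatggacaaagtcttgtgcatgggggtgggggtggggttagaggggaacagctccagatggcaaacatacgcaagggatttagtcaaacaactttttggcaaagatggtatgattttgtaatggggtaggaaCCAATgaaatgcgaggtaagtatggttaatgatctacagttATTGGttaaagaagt
Afm: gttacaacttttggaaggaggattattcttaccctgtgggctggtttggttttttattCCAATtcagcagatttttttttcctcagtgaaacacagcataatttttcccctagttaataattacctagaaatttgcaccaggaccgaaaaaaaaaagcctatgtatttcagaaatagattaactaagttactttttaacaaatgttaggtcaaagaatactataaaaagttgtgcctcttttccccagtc
Gpc3: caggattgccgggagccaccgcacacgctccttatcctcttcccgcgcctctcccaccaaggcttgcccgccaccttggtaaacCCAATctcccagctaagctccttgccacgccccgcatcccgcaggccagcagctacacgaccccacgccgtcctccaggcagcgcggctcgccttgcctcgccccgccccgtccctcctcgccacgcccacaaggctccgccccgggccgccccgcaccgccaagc

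CCAAT was found in the windows of Afp, from base -98 to -94 before the start on the other strand, of Alb, from -56 to -52 and from -15 to -11, of Afm, from -192 to -188, of Gc, from -225 to -221, and of Gpc3, from -166 to -162. It was not found in that of Zbtb20, and 33.8% of 32851 annotated promoters of the same length hold it. The half-site CAAGGNCA of Nr5a2, a nuclear receptor that activates Afp, was found in Afp, from -141 to -134 on the other strand, and in Zbtb20, and 5.53% of promoters hold it. TATAAA was found in Afp, from -7 to -2, in Afm, from -30 to -25, and in 12.4% of promoters. All positions count from the annotated start, which was not checked against other sources. No match of one of these motifs overlaps a match of another. Of the 7 genes 6 have an entry in the promoter table, all except Zhx2.

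Levels are given as log2(intensity + 16) after quantile normalization, so that 4 is the lowest possible value, and differences are HCC minus normal liver on that scale. The median level of all probe sets was 6.90. Between 14.2% and 18.1% of the probe sets of an array lay under an intensity of 16. By Xist and 3 genes of the Y chromosome (Eif2s3y, Kdm5d, Uty), each group held 2 arrays without and 4 with Y-linked signal. HCC 1, HCC 4, normal 1 and normal 3 had Y-linked means from 4.17 to 4.85, against 8.96 to 9.78 in the other 8 arrays. HCC 1 and HCC 4 are also the tumours with the highest Afp and Gpc3 below, so values within each set of arrays are given there. In whole tissue, fewer cells of a type and less RNA per cell cannot be told apart.

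Of the 19 probe sets 5 were higher in HCC and none was lower (limma, Benjamini-Hochberg adjusted p under 0.05 over 45037 probe sets). They were 4 of the 5 probe sets of Afp and the probe set of Gpc3. Among all probe sets tested 4.38% were higher and 3.95% lower by the same rule. The other 14 probe sets, 1 of Afp and all of Alb, Afm, Zhx2 and Zbtb20, did not pass the test. An unadjusted p under 0.05 was reached by 0 probe sets in the lower direction in limma and by 1, that of Zhx2, in an exact permutation test. The number higher was again 5 with median centring and with the scaling as deposited.

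Afp was near the bottom of the scale in normal liver and among the brightest probe sets in HCC. The brightest probe set, 1416645_a_at, had deposited intensities of 29748, 6933, 15445, 31691, 8116 and 20751 in HCC 1 to 6. In normal livers 1 to 6 its intensities were 71.8, 36.3, 30.5, 3.70, 71.8 and 39.6. All tumours thus lay far above all normal livers, and 99.0% of probe sets were dimmer than Afp in HCC, against 28.3% in normal liver. Levels averaged 13.97 ± 0.88 in HCC and 5.72 ± 0.81 in normal liver (SD, 6 arrays per group). The difference was 8.26 ± 0.44 (SE, limma adjusted p = 8.02e-07), a fold of 306 with a 95% interval from 157 to 593. Because normal livers lie close to the floor of the scale, the size depends on the pseudocount, with differences of 8.95 and 7.28 at pseudocounts of 1 and 64, and it was 5.01 as the mean of all 5 probe sets. Among the 8 arrays with Y-linked signal the difference was 8.01, and among the 4 without it 8.75. Each was past the test, the second narrowly (limma adjusted p = 0.000297 and 0.0463).

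**Figure D1:**
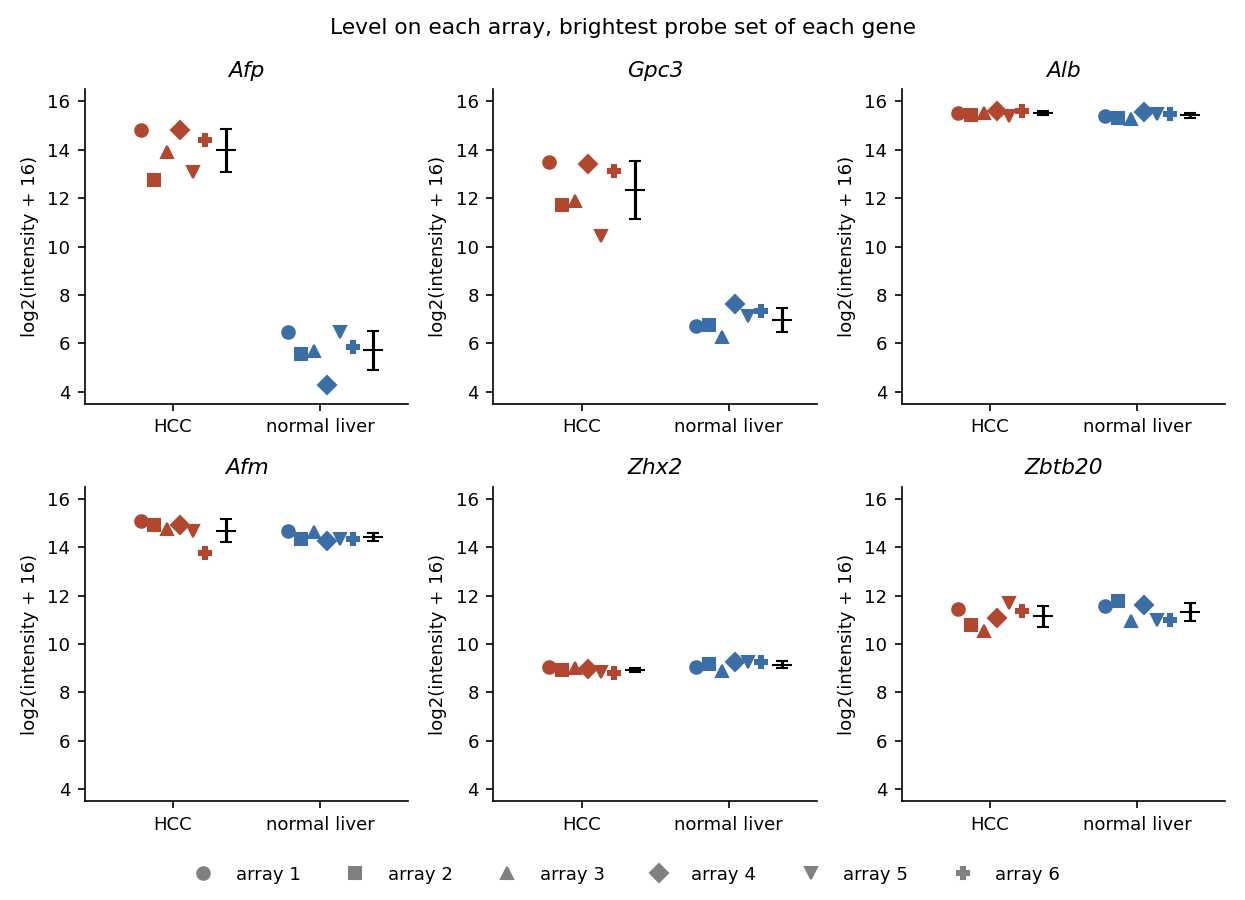
Level of the brightest probe set of each gene on each array, as log2(intensity + 16) after quantile normalization, for 6 HCC (left, red) and 6 normal livers (right, blue), with the mean and SD as black bars. Equal symbols in the 2 groups share only a number. All HCC lie above all normal livers for Afp and Gpc3, and the groups overlap for Alb, Afm, Zhx2 and Zbtb20.

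The tumours differed among themselves in Afp. HCC 1 and HCC 4 were highest at 14.83 and 14.82, HCC 6 followed at 14.42 and HCC 3 at 13.92, and tumours 5 and 2 were lowest at 13.07 and 12.77. The second probe set, 1416646_at, gave the same division, with tumours 4 and 1 highest at 14.53 and 14.37 and tumours 5 and 2 lowest at 12.20 and 11.84. Its difference from normal liver was 7.53 ± 0.50 (SE, limma adjusted p = 6.62e-06). It was 6.69 among the arrays with Y-linked signal and 9.20 among those without it, where it did not pass (adjusted p = 0.0508).

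Probe set 1436879_x_at, next in brightness, separated the tumours far more widely. Its level was 14.81, 14.44 and 12.41 in tumours 1, 4 and 6. In tumours 2, 3 and 5 it was 10.26, 10.40 and 10.28. The SD among tumours was 2.12 for this probe set, against 0.88 and 1.12 for the brighter 2. HCC 3 shows the change of pattern most plainly, since it lay midway among the tumours for the first probe set and beside the lowest for this one. In normal liver the level ran from 4.31 to 5.78, and the difference was 6.83 ± 0.79 (SE, limma adjusted p = 0.000322). It was 5.57 among the arrays with Y-linked signal and 9.35 among those without it, which include HCC 1 and HCC 4. It passed in each, narrowly in the second (limma adjusted p = 0.00178 and 0.0463).

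The last 2 probe sets of Afp were far dimmer than the others in every tumour. 1436881_x_at lay between 5.43 and 8.60 in HCC and between 4.33 and 6.85 in normal liver, with HCC 6 lowest among the tumours although it was among the highest 3 for the brighter ones. Its difference was 2.00 ± 0.55 (SE, limma adjusted p = 0.0424). This call ended when any 1 of 8 arrays was left out, namely HCC 1 to 4 and normal 1, 3, 4 and 6 (adjusted p up to 0.0876), at a pseudocount of 1 (0.0542) and with the Y-linked level as a covariate (0.0514). The difference was 1.06 among the arrays with Y-linked signal and 3.88 among those without it, and neither passed (adjusted p = 0.371 and 0.0812). 1436880_at lay between 4.40 and 5.85 in HCC and between 4.52 and 4.93 in normal liver and did not pass the test (difference 0.43 ± 0.25, SE, limma adjusted p = 0.345). The transcript regions these probe sets read are not given in the sources used here.

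**Figure D2:**
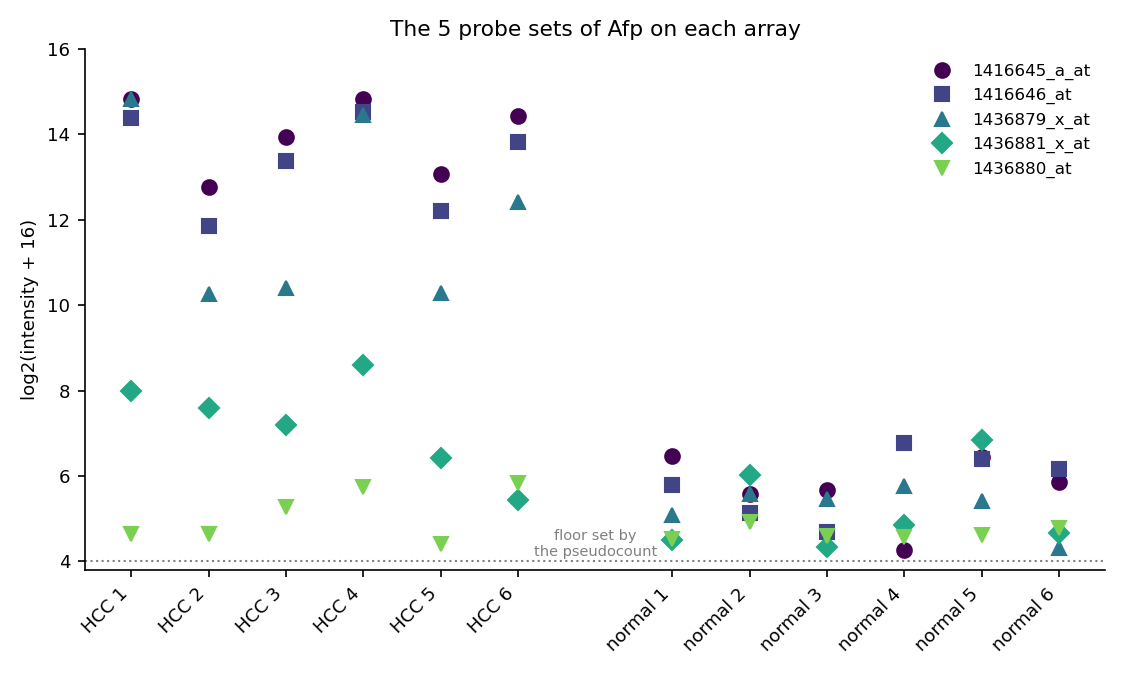
Level of the 5 Afp probe sets on each array, as log2(intensity + 16) after quantile normalization, with HCC at the left and normal livers at the right and the floor of 4 as a dotted line. The brightest 3 probe sets lie above all normal livers in every tumour. Among tumours 1436879_x_at is highest in numbers 1 and 4, at 14.81 and 14.44, with 10.26 to 12.41 in the others.

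Gpc3, the other gene of the set that Zhx2 represses, rose in every tumour as well. Its deposited intensities were 11048, 3365, 3732, 10536, 1393 and 7807 in HCC 1 to 6, against 88.2, 101, 53.3, 165, 119 and 135 in normal livers 1 to 6. Every tumour was brighter than every normal liver. Levels averaged 12.35 ± 1.20 in HCC and 6.97 ± 0.49 in normal liver (SD, 6 arrays per group). The difference was 5.38 ± 0.48 (SE, limma adjusted p = 4.74e-05), a fold of 41.6 with a 95% interval from 20.4 to 85.0. It was 4.59 among the arrays with Y-linked signal and 6.95 among those without it. Each was past the test, the second narrowly (limma adjusted p = 0.0033 and 0.0463). The difference between 4.59 and 6.95 was not tested.

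In 4 of the 19 probe sets, the brightest 3 of Afp and that of Gpc3, all 6 HCC lay above all 6 normal livers. Among all probe sets tested this held for 3.41%, and the reverse for 3.08%.

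The order of the tumours was much the same for Gpc3 as for Afp. Gpc3 was at 13.48, 13.42 and 13.12 in tumours 1, 4 and 6, and at 11.89, 11.73 and 10.45 in tumours 3, 2 and 5. Over the 6 tumours Pearson's r between Afp and Gpc3 was 0.88 (exact permutation p = 0.0222, adjusted p = 0.133 over 6 pairs of genes) and Spearman's rho was 0.94 (exact permutation p = 0.0167, adjusted p = 0.100). Without HCC 2 and HCC 5, the tumours farthest from the median Afp level, r was 0.97. The relation does not pass after adjustment, although it was positive without each tumour in turn, with r from 0.85 to 0.99. Glutamine synthetase (Glul), a target of beta-catenin chosen here after its values were seen, was at 15.16, 15.10 and 14.62 in tumours 1, 4 and 6. It was at 11.75, 11.40 and 12.03 in tumours 2, 3 and 5, against 13.29 to 14.33 in normal liver. The 3 tumours with Glul above all normal livers had the highest Afp and Gpc3. HCC 1 and HCC 4 among them are also the tumours without Y-linked signal. A relation of Glul to Afp and Gpc3 was not tested.

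Albumin itself did not pass the test. Its deposited intensities were 44240, 46637, 53785, 52032, 41550 and 45622 in HCC 1 to 6, against 36302, 38960, 35128, 54166, 51462 and 48558 in normal livers 1 to 6. The groups overlapped. After normalization Alb stood at 15.51 ± 0.09 in HCC and 15.42 ± 0.11 in normal liver (SD, 6 arrays per group), with a difference of 0.08 ± 0.12 (SE, limma adjusted p = 0.741) and a 95% interval of the fold from 0.883 to 1.27. Alb was brighter than 99.9% of probe sets in both groups, and whether the signal of an array is proportional to RNA at such brightness was not tested. The r between Afp and Alb over the tumours was 0.80 (exact permutation p = 0.0778, adjusted p = 0.233; rho 0.64, exact permutation p = 0.200, adjusted p = 0.533). It fell to 0.26 without both HCC 2 and HCC 5, the tumours with the lowest Afp, and ran from 0.72 to 0.92 without each tumour in turn. With the deposited scaling it was 0.35 over all tumours.

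Afamin did not move one way in all tumours. Its brighter probe set, 1427440_a_at, was at 15.09, 14.89, 14.76, 14.92 and 14.66 in HCC 1 to 5 and at 13.76 in HCC 6, against 14.27 to 14.67 in normal liver. HCC 6 lay below every normal liver. The second probe set, 1427561_a_at, had the same shape, with 14.12 to 14.57 in HCC 1 to 5, 12.81 in HCC 6 and 13.38 to 14.05 in normal liver. Over all 6 tumours neither probe set passed the test, with differences of 0.25 ± 0.21 and 0.43 ± 0.28 (SE, limma adjusted p = 0.525 and 0.401). Without HCC 6 these became 0.44 ± 0.15 and 0.70 ± 0.17 (adjusted p = 0.104 and 0.0303), so that the second passed. HCC 6 was the lowest tumour for both probe sets, so a larger difference without it follows from the choice. Neither probe set passed with any other single array left out.

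Neither repressor passed the test. Zhx2 had a narrow range on all arrays, at 9.04, 8.91, 9.00, 8.99, 8.86 and 8.81 in HCC 1 to 6 and at 9.05, 9.17, 8.88, 9.25, 9.26 and 9.26 in normal livers 1 to 6. On this normalized scale all tumours lay below 5 of the 6 normal livers, while normal 3 was lower than 4 of the tumours. In the deposited intensities HCC 1, HCC 3 and HCC 4, at 539.4, 511.3 and 510.2, also lay above normal 1 at 509.6. The difference was -0.21 ± 0.13 (SE, limma adjusted p = 0.361), with a 95% interval of the fold from 0.714 to 1.05. An exact permutation of the 12 arrays over 924 assignments gave an unadjusted, two-sided p of 0.0195 for this probe set alone. The value was -0.34 among arrays with Y-linked signal and 0.04 among those without it, and neither passed.

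Zbtb20 was read by 9 probe sets, and none of them passed the test (limma adjusted p from 0.318 to 0.937, and 0 with an unadjusted p under 0.05 in limma or by exact permutation). The difference was negative in all 9, from -0.42 to -0.04 with a median of -0.29, but the smallest of these turned to 0.03 with the deposited scaling, and 6 of the 9 were positive among the 4 arrays without Y-linked signal. The 95% intervals reached from -0.94 at the lowest to 0.45 at the highest. The 9 probe sets share the same arrays and gene and are not independent. The brightest, 1437598_at, was at 11.44, 10.78, 10.55, 11.07, 11.70 and 11.35 in HCC 1 to 6 and at 11.56, 11.78, 10.94, 11.60, 11.00 and 10.99 in normal livers 1 to 6. HCC 3 was the lowest tumour in 7 of the 9 probe sets and HCC 2 in 2.

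**Figure D3:**
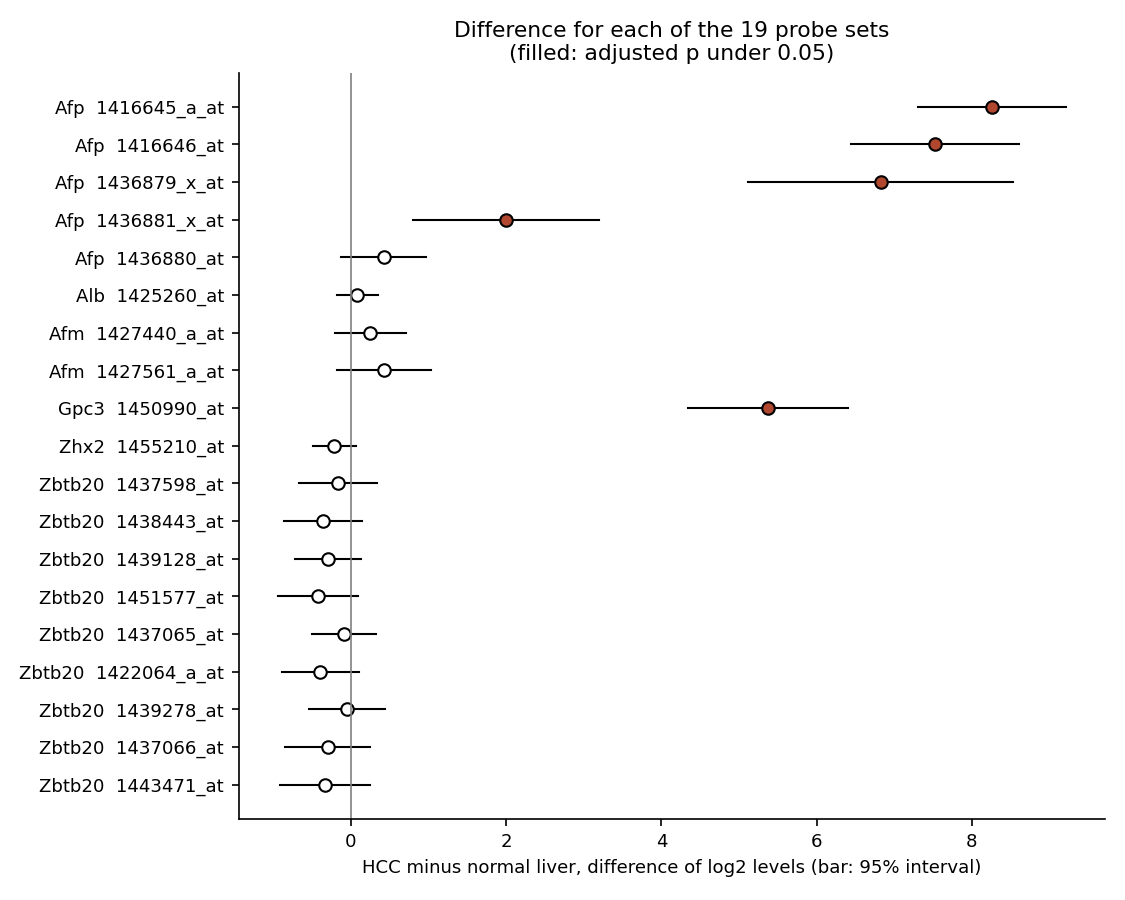
Difference between HCC and normal liver for each of the 19 probe sets, in log2 levels, with 95% intervals as bars and filled points for an adjusted p under 0.05. The brightest 3 Afp probe sets and Gpc3 lie between 5.38 and 8.26, and the intervals of Alb, Afm, Zhx2 and Zbtb20 include 0.

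Whether tumours with less of a repressor had more of its target was asked across the 6 tumours. For Zhx2 the sign was positive, with r = 0.44 for Afp and 0.39 for Gpc3 (exact permutation p = 0.360 and 0.425, adjusted p = 0.638 for both; rho 0.49 and 0.54, exact permutation p = 0.356 and 0.297, adjusted p = 0.533 for both). Without HCC 6 and HCC 1, at the ends of the Zhx2 range, r was 0.78 for both, and over all tumours it was 0.84 and 0.70 with the deposited scaling. For Zbtb20 r was 0.13 with Afp and -0.05 with Gpc3 (exact permutation p = 0.772 and 0.917, adjusted p = 0.917 for both; rho 0.26 and 0.03, exact permutation p = 0.658 and 1, adjusted p = 0.79 and 1). Without HCC 3 and HCC 5 these were 0.81 and 0.83. None of these 4 relations passed a test, and the sign for Zbtb20 turned without single tumours.

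**Figure D4:**
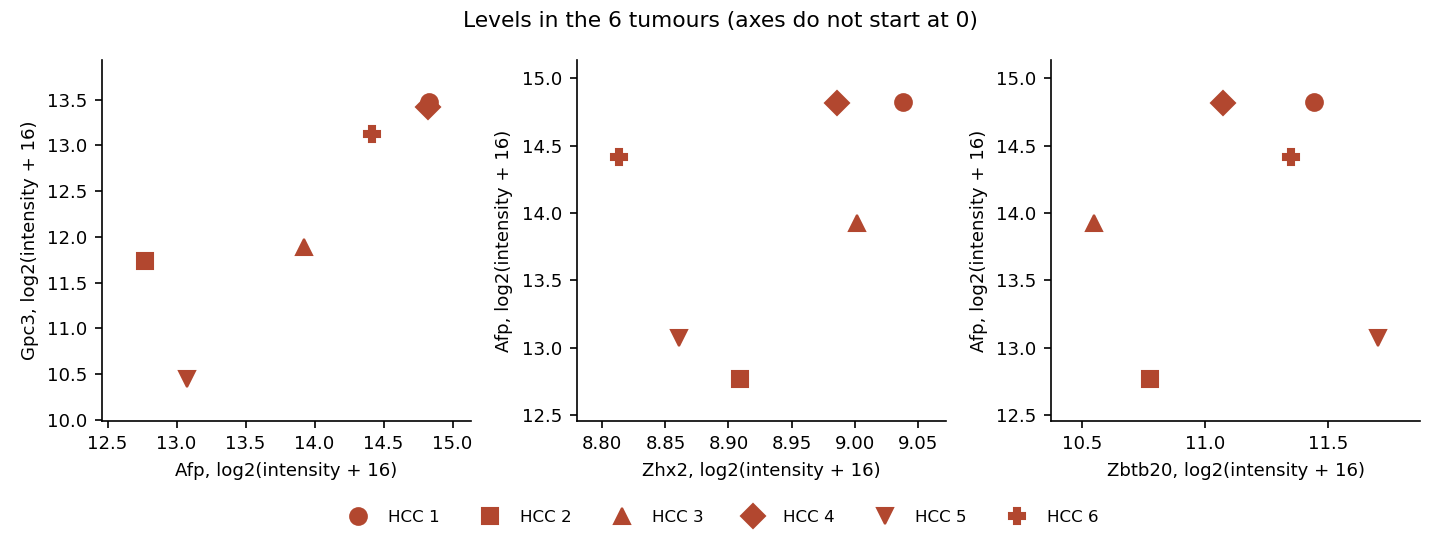
Levels of Gpc3 against Afp, and of Afp against Zhx2 and against Zbtb20, in the 6 tumours, as log2(intensity + 16) of each gene's brightest probe set. Axes cover only the range of the tumours, which spans 0.23 for Zhx2 and 2.06 for Afp. Gpc3 is highest in the 3 tumours with the highest Afp, and HCC 1 and HCC 4, with the highest Afp, are not those with the lowest Zhx2 or Zbtb20.

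Other genes of the pathway were counted in 7 lists, each gene by its brightest probe set, in a test over 18193 genes in which 6.48% were higher and 7.25% lower in HCC and the median difference was -0.04. Of 18 measured adult plasma proteins of hepatocytes, such as transthyretin, apolipoproteins and fibrinogen chains, none passed the test (median 0.02). Their differences ran from -0.07 to 0.26, the last for the fetuin Ahsg (limma adjusted p = 0.137). It was the 1 protein with an unadjusted p under 0.05. These probe sets lie at the top of the scale, with group means from 15.08 to 16.06, and the highest level on any array was 16.06. Quantile normalization gives the brightest probe set the same level on each array, as it did for Apoa1 in all normal livers, so small differences there are nearly fixed. With the deposited scaling, which fixes no ranks, differences ran from -0.03 to 0.33 and again 0 of 18 passed, with 1 at an unadjusted p under 0.05. The summed intensity of this list was 796835 to 858323 in HCC and 800301 to 835861 in normal liver.

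Among 18 measured transcription factors of the albumin and Afp promoters and enhancers, 1 rose and 3 fell (median 0.02). The forkhead activator Foxa3 rose by 1.05 ± 0.24 (SE, limma adjusted p = 0.0138). Cebpa, a leucine zipper factor that activates Alb, was at 11.97 ± 0.35 in HCC and 12.68 ± 0.09 in normal liver (SD, 6 arrays per group), a difference of -0.71 ± 0.16 (SE, adjusted p = 0.0129). The bile acid receptor Nr1h4 was at -1.54 ± 0.31 (SE, adjusted p = 0.00631) and the zinc finger factor Gata4 at -0.62 (adjusted p = 0.0242). The call of Gata4 was lost with the deposited scaling (-0.46, adjusted p = 0.0923), with median centring (-0.53, 0.0809), with the mean of its probe sets (-0.41, 0.183) and without normal 5 or normal 6 (0.0508 and 0.0520). Hnf4a, the central factor of hepatocyte identity, did not pass (0.09 ± 0.12, SE, adjusted p = 0.678), and its sign turned with the deposited scaling (-0.03).

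Of 16 measured other regulators of Afp, 2 rose and 1 fell (median -0.05). Beta-catenin (Ctnnb1) rose by 0.63 ± 0.10 (SE, limma adjusted p = 0.0019), and all HCC lay above all normal livers, at 14.10 to 14.35 against 13.48 to 13.63, as was so for 4.25% of all genes tested. Smad3, a mediator of TGF-beta signals, rose by 0.63 ± 0.16 (adjusted p = 0.0231), a call lost without normal 4 or normal 5 (0.052 and 0.0515). The Wnt effector Tcf7l2 was at -0.52 ± 0.15 (adjusted p = 0.0394), a call lost with the deposited scaling (-0.36, adjusted p = 0.158), with the mean of its probe sets (-0.25, 0.539) and without any of 11 single arrays (all but HCC 1, adjusted p up to 0.0814). The relatives of Zhx2, Zhx1 and Zhx3, were at 0.26 and -0.32, and Zfhx3, a zinc finger repressor of Afp, at -0.13, and none of the 3 passed (adjusted p from 0.256 to 0.714). The sign of Zfhx3 turned with the deposited scaling (0.01).

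Of 8 other genes under Zhx2 control in mouse liver 3 were measured, and they did not move one way. Lipoprotein lipase (Lpl), which Zhx2 represses, was at 14.01 ± 0.46 in HCC and 9.91 ± 1.14 in normal liver (SD, 6 arrays per group), a rise of 4.10 ± 0.46 (SE, limma adjusted p = 0.000174) with all HCC above all normal livers. The major urinary protein gene Mup3 fell by 3.73 ± 1.02 (adjusted p = 0.0297), a value that is uncertain because this family holds near-identical copies. Its call ended when any 1 of 9 arrays was left out (all but HCC 2, HCC 5 and normal 1, adjusted p up to 0.0644). Cyp4a12a, a male-biased cytochrome P450, ranged from 4.79 to 8.47 in HCC and from 5.95 to 14.73 in normal liver and did not pass (difference -4.87 ± 1.56, adjusted p = 0.0568). It passed without normal 1 or normal 3, the normal livers without Y-linked signal (-6.01 and -5.84, adjusted p = 0.0133 and 0.0243). It also passed among the arrays with that signal (-6.85, adjusted p = 0.000134) and with the Y-linked level as a covariate (-4.93, 0.00369). The filter on dim probe sets (adjusted p = 0.0350) and a pseudocount of 64 (0.0379) gave a call as well. Among the arrays without Y-linked signal the difference was only -0.92 and did not pass.

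Among 16 measured other fetal liver genes 3 rose, none fell and 13 did not pass (median 0.11). They were the X-linked Bex1 at 7.28 ± 0.35 (SE, limma adjusted p = 1.9e-07), the surface protein Cd24a at 2.06 ± 0.49 (adjusted p = 0.0159) and the transcription factor Sox4 at 1.85 ± 0.53 (adjusted p = 0.0349). The call of Sox4 ended when any 1 of 8 arrays was left out (all but HCC 1, HCC 3, HCC 4 and normal 6, adjusted p up to 0.0696) and with the mean of its probe sets (0.85, adjusted p = 0.0991). Among the arrays without Y-linked signal, which include the tumours with the highest Afp, Cd24a was at 0.66 and Sox4 at 0.58, and neither passed (adjusted p = 0.460 and 0.612). The insulin-like growth factor Igf2, a growth factor of the fetal liver, ranged from 6.19 to 14.32 in HCC against 6.97 to 8.02 in normal liver (difference 2.90 ± 1.29, adjusted p = 0.157), and it passed without HCC 2 (3.75, 0.0477). The fetal RNA binding proteins Igf2bp1 and Igf2bp3 were at -0.17 and -0.46 and did not pass (adjusted p = 0.769 and 0.103), although Igf2bp3 did without HCC 2 (-0.57, 0.0295). At an unadjusted p under 0.05, 5 genes of the list were higher and 1 lower.

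Relatives of Gpc3 were counted too. Of 19 measured glypicans, syndecans and enzymes that act on heparan sulfate, 2 rose and none fell (median -0.07). Both were glypicans, but the glypicans did not move one way. At an unadjusted p under 0.05 2 genes were lower, the glypican Gpc1 among them (-0.82, limma adjusted p = 0.106). Gpc6 rose by 1.23 ± 0.24 (SE, limma adjusted p = 0.00592) and was at 8.05 to 9.39 in HCC, against 7.04 to 7.62 in normal livers. It was 0.52 among the arrays without Y-linked signal and did not pass there (adjusted p = 0.330). Gpc4, which lies beside Gpc3 on the X chromosome, rose by 0.66 ± 0.18 (adjusted p = 0.0253), a call lost without any of 5 single arrays (HCC 3, HCC 6 and normal 3, 4 and 5, adjusted p up to 0.0549). Of 11 receptors and handlers of albumin and vitamin D, none rose, also at an unadjusted p under 0.05, and 2 fell (median -0.39). They were the vitamin D 25-hydroxylase Cyp2r1 at -0.90 ± 0.22 (adjusted p = 0.0171) and the sterol 27-hydroxylase Cyp27a1 at -1.29 ± 0.36 (adjusted p = 0.030). The call of Cyp27a1 was lost without any of 9 single arrays (all but HCC 1, HCC 4 and normal 1, adjusted p up to 0.0615) and with the mean of its probe sets (-0.45, adjusted p = 0.202), and among the arrays without Y-linked signal the difference was -0.12 (adjusted p = 0.814). Over all 7 lists the number of genes lower was 7, and it was 4 without tumour 6 or normal livers 2, 4 or 5 and 3 without normal liver 6. In the 4 arrays without Y-linked signal the calls of the lists numbered 1 higher, that of Bex1, and 0 lower.

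**Figure D5:**
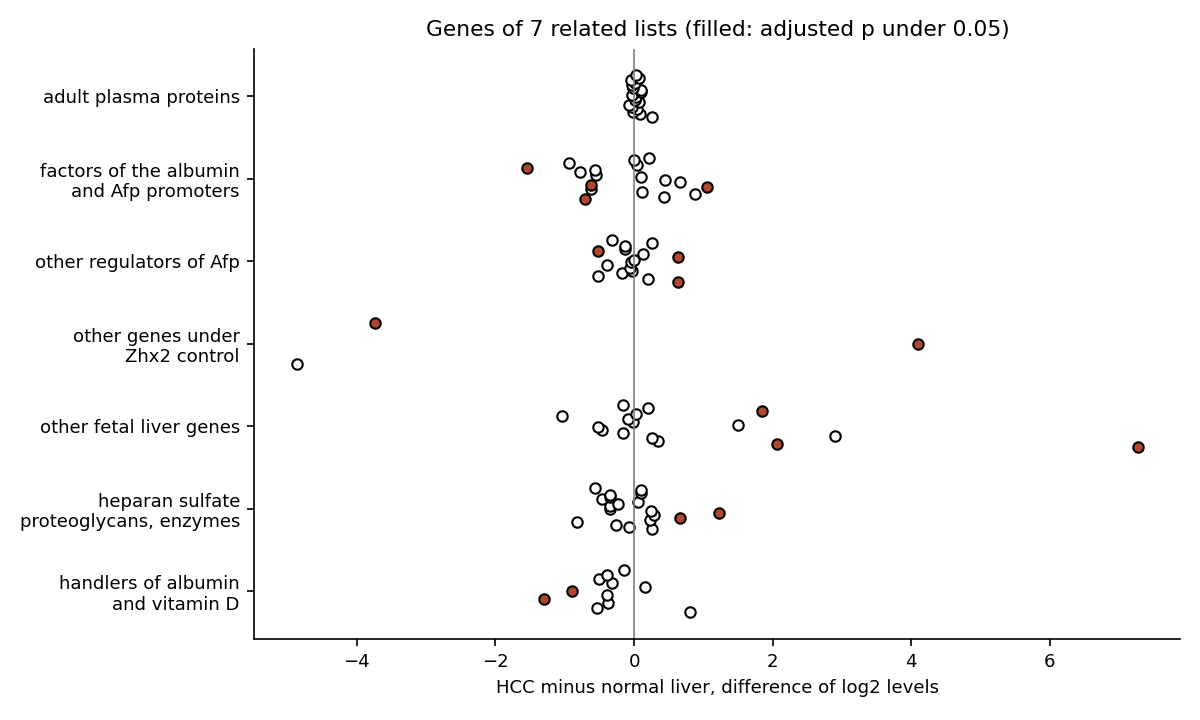
Difference between HCC and normal liver in log2 levels for the measured genes of 7 related lists, each point 1 gene, filled where the adjusted p was under 0.05. The adult plasma proteins lie within -0.07 and 0.26, while Bex1 at 7.28, Lpl at 4.10 and Mup3 at -3.73 lie farthest out among the filled points.

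Genes around these loci passed the test about as often as all genes did. Of the 3 nearest measured genes on each side of the Alb to Afm cluster none of 6 passed (differences from -0.30 to 1.03, and 1 with an unadjusted p under 0.05). They include Albfm1, a further albumin family gene next to Afm, at 10.13 ± 0.50 in HCC and 10.42 ± 0.20 in normal liver (SD, 6 arrays per group, limma adjusted p = 0.405). Of 30 such neighbours of the cluster, Gc, Gpc3, Zhx2 and Zbtb20 together, 3 rose and 1 fell, beside 6.48% higher and 7.25% lower among all genes tested. They were Gpc4, the nucleoside kinase Dck near Gc at 0.58 ± 0.18, the protein degradation factor Derl1 near Zhx2 at 0.52 ± 0.15 and the dopamine receptor Drd3 near Zbtb20 at -0.66 ± 0.19 (SE, adjusted p = 0.0453, 0.0413 and 0.0383). These last 3 calls depended on single arrays. Leaving out 1 array ended the call of Dck for all but HCC 1 and 3, that of Derl1 for all but HCC 5, and that of Drd3 for all but HCC 2 and normal 1 (adjusted p up to 0.0921, 0.0874 and 0.0833). With the mean of their probe sets Dck was at 0.26 and Derl1 at 0.29, and neither passed (adjusted p = 0.279 and 0.181).

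The genes most like Afp over the 12 arrays, by the root mean square difference of profiles set to 0 at the normal mean, were Bex1 (0.94), the tetraspanin Tspan8 (1.19) and the hydroxysteroid dehydrogenase Akr1c18 (1.22). Those most like Gpc3 were the surface protein Ly6d (0.64), the protease subunit Mep1b (0.78) and the glycosyltransferase Galnt6 (0.85). These genes were picked for likeness on the same arrays, so a shared order of tumours partly follows from the choice. Galnt6 was at 11.26 and 10.71 in HCC 1 and HCC 4 and at 8.07 in HCC 5, the highest pair and the lowest for Gpc3. The order was not shared throughout, since Ly6d was highest in HCC 6 at 14.70 and Bex1 in HCC 3 at 14.61. Tspan8 stayed between 13.62 and 14.26 in the tumours, a narrower range than that of Afp.

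Markers of cell types moved in several directions beside these results. Of 7 measured hepatocyte markers 1 fell, the aminotransferase Tat at -1.14 (limma adjusted p = 0.0369, lost without any of 10 single arrays, all but HCC 3 and HCC 5, with adjusted p up to 0.0720, and -0.67 and -2.07 with and without Y-linked signal), and the summed intensity of the list was 188652 to 250376 in HCC and 238429 to 248633 in normal liver. All 5 measured genes of cell division rose, with summed intensities of 784 to 3222 in HCC and 238 to 499 in normal liver. Of 6 biliary and progenitor markers only Prom1 rose (4.29), and Krt19, Epcam and Sox9 did not pass. The groups overlapped for Prom1, at 9.39 to 13.16 in HCC and 6.51 to 9.44 in normal liver. The sum of the list was 1192 to 9648 in HCC and 533 to 1172 in normal liver. Prom1 was by far the brightest of the list in HCC, with a mean of 11.80 against 6.05 to 7.51 for the other 5. Of 7 endothelial markers 2 fell, with sums of 1630 to 5390 in HCC and 4239 to 7143 in normal liver. At an unadjusted p under 0.05, 2 of them were higher and 2 lower. Of 7 Kupffer cell and myeloid markers 2 fell, and again 2 were higher and 2 lower at an unadjusted p under 0.05. Their sums were 3131 to 15592 in HCC and 4754 to 9616 in normal liver. Of 10 stellate cell, fibroblast and mesothelium markers 1 rose and 2 fell, and the sums were 1720 to 62908 in HCC and 6808 to 10752 in normal liver. None of 6 lymphocyte markers passed, with 1 higher and 1 lower at an unadjusted p under 0.05, and the sums were 633 to 6203 in HCC and 5088 to 7821 in normal liver. Of 3 markers of red cell precursors 1 fell, with sums of 768 to 2694 in HCC and 532 to 4770 in normal liver. The part of these markers in the results for Afp, Gpc3 and Afm was not tested.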

How the data were processed

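Per the labels' protocols, 1 microgram of RNA from each of 12 frozen tissue samples was amplified by a one-cycle protocol and labelled with biotin. The intensity values were deposited by the authors as linear signals for 45101 probe sets, with a 2% trimmed mean of 500.0 on every array. How probes were summarised is not stated there. The 64 control probe sets were left out. Genes were named through the platform annotation and updated by gene ID (34945 probe sets with 1 gene, 932 with several, 9160 with none). Because array medians differed (92.4 to 114 in intensity), log2(intensity + 16) was quantile normalized. The test of HCC minus normal liver was that of limma 3.58.1 (R 4.3.3, lmFit and eBayes, two-sided, Benjamini-Hochberg, threshold 0.05) over 45037 probe sets for the members and over 18193 genes, each by its brightest probe set, for the lists. Relations across tumours used exact permutation over all 720 orders. Promoters and the order of neighbouring genes came from RefSeq, GRCm38.p6. Nothing states that samples came from separate animals, so p-values measure the spread between these samples.

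The named genes were, from each list, the 3 largest differences among genes that passed, or else the gene of smallest p, the neighbours past the test, the 3 profiles nearest to Afp and Gpc3, and the sex-linked genes. Gata4, Hnf4a, Zhx1, Zhx3, Zfhx3, Cyp4a12a, Igf2, Igf2bp1, Igf2bp3, Albfm1, Apoa1, Gpc1, Glul and the markers named were added after their values were seen. The members and lists were chosen with earlier results of these data known. The tests were tested on simulated data. Alternatives were other scalings, pseudocounts of 1 and 64, a filter on dim probe sets, a trended and robust variance, weights per array, a block for replicate numbers, the Y-linked level as a covariate, arrays with or without Y-linked signal, each array left out, exact permutation, and the mean of a gene's probe sets. Tables and figures were made in Python 3.11.15 with pandas 2.3.3, numpy 2.4.6, matplotlib 3.10.9 and scipy 1.17.1.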

Additional observations from a re-analysis of the deposited data

Results flagged for a closer look

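In 6 of 70 groups of 6 arrays that were checked for a sample far from the others, the gap to the nearest array exceeded Dixon's 95% critical value, which chance does in about 1 of 20 groups. Afm lay far below the other tumours in HCC 6 for both probe sets, at 13.76 against 14.66 to 15.09 for 1427440_a_at and at 12.81 against 14.12 to 14.57 for 1427561_a_at. In the list of plasma proteins, Ahsg was lowest in HCC 1 at 15.66 against 15.70 to 15.73 in the other tumours. Among normal livers, normal 1 stood apart for Lpl, at 12.05 against 8.84 to 10.00, and for Mup3, at 12.11 against 14.32 to 14.95. Both belong to the list under Zhx2 control, and normal 1 is also an array without Y-linked signal. A relation to either was not tested. Sox4 was highest in normal 6 at 9.50, against 8.40 to 8.81 in the other normal livers.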

How the results depend on the processing

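Over all alternatives, 438 of 467 values for the 19 probe sets kept their direction and their side of the threshold. The 14 probe sets that did not pass count as kept wherever they stayed uncalled in the same direction. Exact permutation entered this count with the main difference and with its unadjusted p set against the same 0.05. Afp (1416645_a_at) lay between 7.97 and 8.50 and Gpc3 between 5.15 and 5.76 with each array left out, and both passed every limma alternative run. For Zhx2 exact permutation put the difference of -0.21 past an unadjusted 0.05 (p = 0.0195), and the arrays without Y-linked signal gave 0.043. Those 4 arrays also gave positive values for 6 Zbtb20 probe sets, 0.0066 for 1437598_at, 0.0023 for 1451577_at, 0.040 for 1437065_at, 0.21 for 1439278_at, 0.29 for 1437066_at and 0.17 for 1443471_at. The deposited scaling gave 0.032 for 1439278_at. With single arrays left out, 1437065_at ran from -0.175 to 0.0173 and 1439278_at from -0.129 to 0.0671. The number of member probe sets called higher was 5, 4 to 6 with each array left out, and 3 in the arrays without Y-linked signal. Genes of the lists called higher numbered 9, 6 to 9 with each array left out, and 1 in the arrays without Y-linked signal. Genes called lower numbered 7, against 11 with the filter on dim probe sets, 3 with the replicate block, 2 in the arrays with Y-linked signal, 0 in those without it, and 3 to 8 with each array left out. The r of Zbtb20 with Gpc3 was 0.0663 with the mean of all probe sets and ran from -0.25 to 0.87 with each tumour left out, and that with Afp ran from -0.22 to 0.66. With the deposited scaling r was 0.84 for Zhx2 with Afp and 0.35 for Afp with Alb. Nothing says that equal replicate numbers mark paired animals, correlations of the deviations of same-number arrays were -0.0147 to 0.0777, and 2 of 6 HCC arrays correlated best with their own number. With the replicate block 4 member probe sets were called higher, and the block ended the calls of 1436881_x_at (adjusted p = 0.0832), Cebpa (0.0528), Gata4 (0.0623), Tat (0.0707), Cyp27a1 (0.0621), Tcf7l2 (0.112), Dck (0.0622), Derl1 (0.0986) and Drd3 (0.0763), and of no other gene named with a call. Genes near 0 changed sign. Hnf4a was at -0.10 after median centring and at -0.033 as deposited. Zfhx3 was at 0.010 with the deposited scaling, 0.25 in the arrays without Y-linked signal and 0.21 with the mean of its probe sets. Krt19 was at -0.084 with a pseudocount of 1, -0.10 with array weights, -0.0013 with the Y-linked covariate and -1.07 without Y-linked signal, and ran from -0.179 to 0.389 with each array left out. Epcam was at 0.21 with Y-linked signal and ran from -0.382 to 0.120. Sox9 was at -0.23 without Y-linked signal and -0.060 with the mean of its probe sets. Of all probe sets, 1971 were higher and 1781 lower, against 1154 and 924 with the block, 2796 and 2816 of 23215 with the filter, 817 and 661 with Y-linked signal and 7 and 3 without it. Without normal liver 5 they were 1385 and 1129. Of 934 values for 39 of the genes named beside the members 142 lost their call, 8 gained one and 18 changed direction. The cause was not tested, but only 8 arrays had Y-linked signal and 4 lacked it. Values near the floor of 4 have no reliable size or order.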
